A study of Rattus norvegicus with 3 samples.

Results

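The glutathione S-transferase classes are the gene families whose enzymes join the tripeptide glutathione to electrophiles, and 10 of their genes were described in rat renal proximal tubules. They were Gsta1, Gsta3 and Gsta4 of the alpha class, Gstm1 and Gstm2 of the mu class, Gstt1 and Gstt2 of the theta class, Gstp1 of the pi class, Gstk1 of the kappa class and the membrane-bound Mgst1. They were chosen by name, as every probe set that the array annotation gave to exactly 1 of these symbols. All 10 were measured, through 11 of the 20826 probe sets that named 1 gene, and they are 10 of the 14217 named genes. Tubules came from Sprague-Dawley rats, all male and 7 to 8 weeks old, in 3 preparations with 1 Affymetrix array each. Every rat was given heparin intraperitoneally (250 units) and was decapitated 30 min later. Cold phosphate-buffered saline and then collagenase at 2 mg/ml were perfused through the kidneys, cortex was kept in collagenase for 20 min, and Percoll at 42.5% separated the tubules from other tissue. The 3 arrays form 1 group with no control, and how many animals made up a preparation is not stated, so spreads between arrays may be partly technical.

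Glutathione S-transferases make reactive compounds more water soluble, and the conjugates are then exported and trimmed to mercapturates, largely at the proximal tubule brush border. The alpha, mu, theta and pi classes are soluble dimers that differ in the substrates they accept, the kappa enzyme lies in mitochondria and peroxisomes, and Mgst1 sits in membranes of the endoplasmic reticulum and mitochondria. Many of the soluble members are targets of the transcription factor NRF2, which binds antioxidant response elements. In human urine, alpha and pi class proteins are used as signs of proximal and distal tubule damage.

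The arrays had similar signal distributions, with medians of 37.1, 37.4 and 34.9 on arrays 1, 2 and 3 and 75th percentiles of 181, 167 and 167. Of the 12 proximal tubule markers, 11 lay above the median on all 3 arrays, with a summed signal from 61140.2 to 67641. Of the 8 hepatocyte markers, 0 did, and their summed signal was 92.0 to 111. The corresponding counts were 6 of 8 for the thick ascending limb, 4 of 11 for distal tubule and collecting duct and 6 of 7 for endothelium. They were 1 of 5 for podocytes, 4 of 9 for fibroblasts and smooth muscle and 3 of 7 for leukocytes, beside 61.0% of all named genes. Summed signals were 13419.5 to 15841 for the thick ascending limb and 3669 to 5682 for leukocytes, the latter carried mainly by Cd74. They were 1799 to 2330 for distal tubule and collecting duct, 813 to 1324 for endothelium, 568 to 718 for fibroblasts and smooth muscle and 156 to 206 for podocytes. In bulk tubules, a cell type that is less frequent and one that holds less of an RNA cannot be told apart. Probe sets differ in affinity, so single genes are not ranked against each other. A gene is set against its own values on the other arrays and against fixed lines of the array, and percentiles among all named genes are given for lists only.

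All 10 transferase genes had signals above the array median on all 3 arrays, beside 61.0% of all named genes. Against the stricter line of the 75th percentile on all 3 arrays the count was 8 of 10, beside 36.4% of all named genes, and the exceptions were Gsta3 and Gstm2. The median percentile of the members among all named genes was 89.1, the mean of 89.8, 87.8 and 89.8 on arrays 1, 2 and 3, beside 50 for all named genes by construction. A high value was not particular to the members. It was 98.8 for the proximal tubule markers, 87.8 for conjugate export and mercapturate formation and 85.8 for glutathione synthesis and recycling. For the NRF2 pathway list it was 66.7, and for the other transferases 40.7. These are descriptions with no test, of a list chosen by name with earlier results of these data known, and low family genes such as Gstm3, Mgst2 and Gsto2 are not in it.

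**Figure D1:**
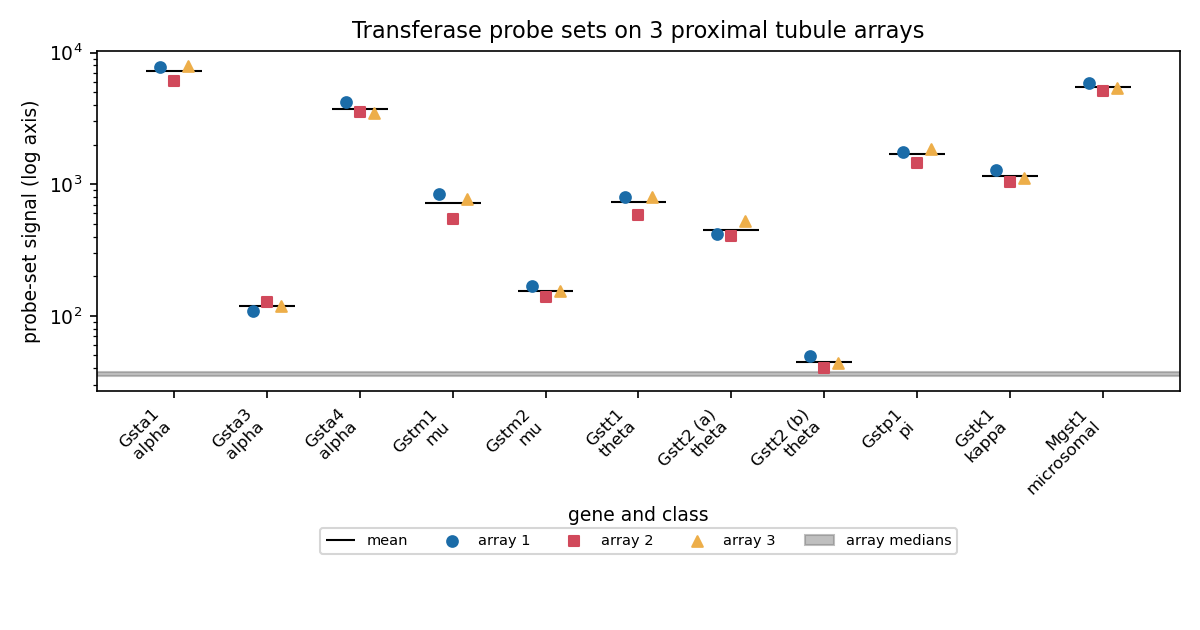
Signals of the 11 transferase probe sets (log axis), with a symbol for each of the 3 arrays and a bar at the mean; the grey band spans the array medians of 34.9 to 37.4. Every symbol lies above the band, and the square of array 2 is the lowest of its trio except for Gsta3 and Gsta4; Gstt2 (a) and (b) are the 2 probe sets of that gene.

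Within the alpha class, Gsta1 gave 7734, 6045 and 7876 on arrays 1, 2 and 3, a mean of 7218 ± 1019 (SD, n = 3). Its signal was 162 to 226 times the array median, and array 2 was 22.5% below the mean of the other arrays. Gsta1 encodes the rat Yc1 subunit, an alpha class protein that also reduces lipid hydroperoxides, and the annotation lists Gsta3 as an older name of this gene. Gsta3 now names the gene of the Yc2 subunit, known in rat liver for conjugating activated aflatoxin. Its probe set gave 108, 127 and 119, or 2.90 to 3.41 times the array median, a mean of 118 ± 9.43 (SD, n = 3). Gsta3 was the member whose signal was lowest on array 1 and highest on array 2.

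Gsta4, whose enzyme conjugates 4-hydroxynonenal from peroxidised lipids, gave 4224, 3552 and 3451, a mean of 3742 ± 420.1 (SD, n = 3). Its highest signal was on array 1 and exceeded its lowest, on array 3, by 1.22-fold. Gsta1 and Gsta3 are neighbours in the RefSeq annotation of the GRCr8 assembly, while Gsta4 stands beside Gsta5 at another locus. Another 1 probe set named both Gsta2 and Gsta5 and was left out. Gsta2, Gsta5 and Gsta6 had no probe set of their own, and signal shared between alpha class copies was not tested.

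Over the arrays Gsta1 ranged 1.30-fold and Gsta3 1.17-fold. With 1 preparation per array, their difference in order was not tested. The sequences before the starts of Gsta1 and Gsta3 are shown because the signals of these 2 neighbours of 1 class were ordered differently over the arrays. They are the 250 bases upstream of the RefSeq start in GRCr8, for Gsta1 at chr9:31216533-31216782 on the minus strand and for Gsta3 at chr9:31154739-31154988 on the plus strand, and RefSeq also gives Gsta3 another start further on. Capitals mark letters that match the antioxidant response element core TGACNNNGC or the half-site GTTAAT of the hepatocyte nuclear factor HNF1, each on either strand.
Gsta1: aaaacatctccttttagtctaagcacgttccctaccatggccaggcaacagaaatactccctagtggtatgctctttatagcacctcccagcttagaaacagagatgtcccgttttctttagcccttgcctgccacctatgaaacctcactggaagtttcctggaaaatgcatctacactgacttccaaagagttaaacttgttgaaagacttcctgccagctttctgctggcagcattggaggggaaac
Gsta3: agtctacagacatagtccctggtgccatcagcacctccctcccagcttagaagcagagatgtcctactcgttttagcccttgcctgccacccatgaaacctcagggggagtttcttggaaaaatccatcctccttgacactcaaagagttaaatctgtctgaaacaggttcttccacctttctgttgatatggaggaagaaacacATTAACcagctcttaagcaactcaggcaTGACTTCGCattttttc
In a global alignment, 158 of 198 paired bases of these windows were identical (79.8%). The largest share of the 250 bases that any other pair of member windows had identical was 57.6%, for Gstm2 and Gstk1, beside 63.2% for Gsta1 and Gsta3.

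RefSeq windows from 250 bases before to 50 after the start were at hand for 8 of the 10 members, in 9 windows, with none for Gstt1 and Gstt2. The antioxidant response element core was found in the windows of Gsta1, Gsta3 and Gstp1, beside 12.1% of all 33469 windows of this length. The match began 31 bases after the annotated start in Gsta1 and 17 bases before it in Gsta3, in otherwise similar letters, and 61 bases before it in Gstp1. Each is given here as 30 bases, with the matching core in capitals, at chr9:31216483-31216512 (minus strand), chr9:31154962-31154991 (plus strand) and chr1:210769747-210769776 (minus strand).
Gsta1 core: aactcaggcaTGACTTTGCatttttcttct
Gsta3 core: aactcaggcaTGACTTCGCattttttccta
Gstp1 core: tccactgtgtTGACTCAGCatccggggcgg
The Gstp1 match overlaps a match to the AP-1 site TGANTCA, which 7.33% of all windows hold and which was also found in the window of Mgst1. The HNF1 half-site GTTAAT was found for Gsta1 and Gsta3, beside 7.45% of all windows. In Gsta1 it began 3 bases after the start. Both Gsta1 matches thus lie beyond the 250 bases shown for that gene, which hold no capitals. The letters TATAAA were found for Gstm1 and Gsta1, beside 14.2% of all windows. In Gstm1 they began 29 bases before the start on the gene's own strand, but in Gsta1 176 bases before it on the opposite strand. A match describes letters only, and no factor was measured at these sites.

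In the mu class, whose enzymes act on epoxides and aryl halides, Gstm1 gave 848, 547 and 773, a mean of 723 ± 157 (SD, n = 3). Its array 2 signal was 32.6% below the mean of arrays 1 and 3. Gstm1 was the member with the largest spread, with its highest signal 1.55-fold above its lowest. Its neighbour Gstm2 gave 167, 139 and 155, a mean of 154 ± 14.1 (SD, n = 3), with array 2 lower than the mean of the other arrays by 13.5%. Both mu class members were thus lowest on array 2. Mu class genes stand in a row in the genome and resemble each other, and signal shared between such copies was not tested.

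In the theta class, Gstt1, whose enzyme dehalogenates small halogenated compounds, gave 796, 583 and 803, a mean of 728 ± 125 (SD, n = 3). Arrays 1 and 3 were close to each other and array 2 was 27.1% below their mean. Gstt2 was read by 2 probe sets. The brighter gave 418, 402 and 524, and the dimmer gave 49.5, 40.3 and 44.1. The dimmer was 1.08 to 1.33 times the array median on the 3 arrays, too near it to be told from background without detection calls. Both were lowest on array 2, but the brighter was highest on array 3 and the dimmer on array 1, so they disagree on the order of arrays 1 and 3.

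Gstp1, the pi class gene, whose protein is a classic marker of preneoplastic foci in rat liver, gave 1759, 1449 and 1862, a mean of 1689.8 ± 215 (SD, n = 3). Array 2 was 19.99% below the mean of the other arrays. In the tubule preparations, Slc12a3 of the distal convoluted tubule gave 595, 587 and 797, Calb1 of the distal and connecting tubule gave 292, 214 and 390.0, and Aqp3 of principal cells gave 939.7, 808 and 858. The summed signal of the 11 distal and collecting duct markers was 1988, 1799 and 2330.1. Aqp2, the water channel of principal cells, gave 4.25, 4.80 and 32.9, under the respective array medians of 37.1, 37.4 and 34.9. Without detection calls, signals this low could not be told from background. That sum, carried mainly by Slc12a3, Aqp3 and Calb1, was lowest on array 2 as Gstp1 was, but 6 of the 11 markers were lowest on array 1 and 10 of 11 highest on array 3 with median centring, and their median deviation was -0.21, -0.13 and 0.29 log2 units. The part of these cells in the Gstp1 signal was not tested.

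Gstk1, the mitochondrial and peroxisomal member, gave 1283, 1043 and 1109, a mean of 1145 ± 124 (SD, n = 3). Mgst1, the membrane-bound transferase and peroxidase, gave 5848, 5095 and 5404, a mean of 5449 ± 379 (SD, n = 3). Both had their highest signal on array 1 and their lowest on array 2. Mgst1 had the narrowest spread of the members, with a coefficient of variation of 6.95%, beside 21.7% for Gstm1.

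The preparations were then compared through the members, on log2(signal + 16) centred on each array's median. Of the 10 genes, 9 were lowest on array 2, and Gsta3 was not. The background is high, since 46.4% of all named genes, 56.7% of those above the median level and 62.4% of those above the 75th percentile on all 3 arrays were also lowest on array 2. The members' median deviation from their own means was 0.09, -0.16 and 0.11 on arrays 1, 2 and 3. After quantile normalization it was 0.03, -0.09 and 0.10, and without centring it was 0.11, -0.13 and 0.07. With median centring, for the 7108 named genes above the median level the values were 0.07, -0.08 and 0.01. The deviations on array 2 ran from -0.40 for Gstm1, -0.32 for Gstt1 and -0.27 for Gsta1 to 0.07 for Gsta3. Each array is 1 preparation, so these differences carry no test.

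**Figure D2:**
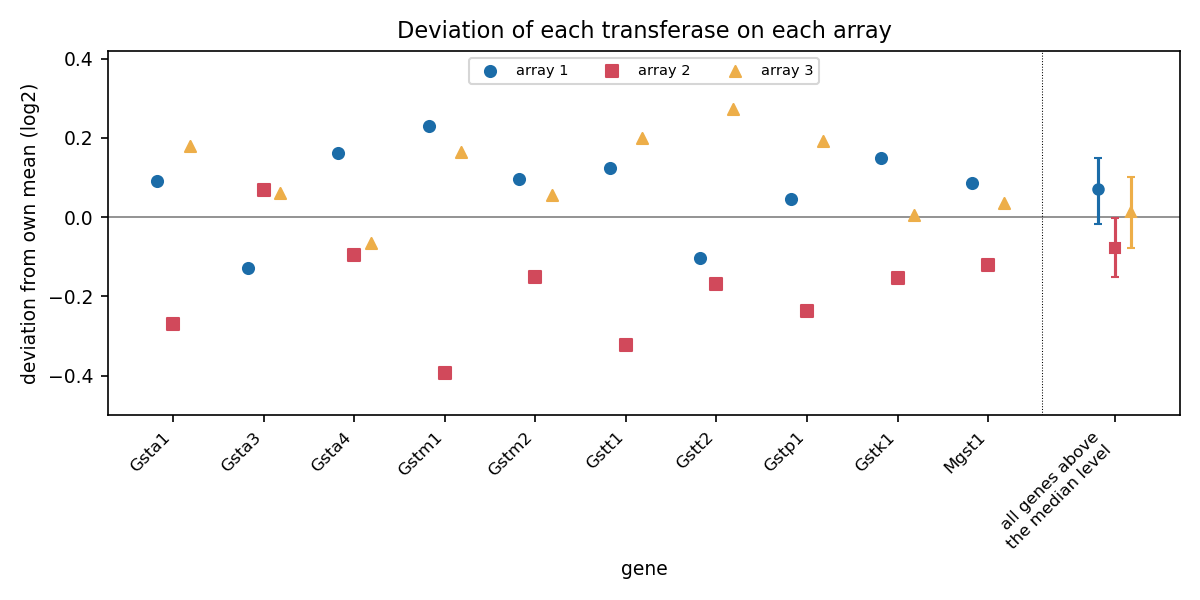
Deviation of each transferase gene from its own mean over the 3 arrays (log2 units, signals centred on the array median); at the right, the median and interquartile range of the 7108 named genes above the median level. Array 2 is lowest for 9 of the 10 genes, at -0.40 for Gstm1, and the array 2 median at the right is -0.08.

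The count depended on the scaling. As deposited, 8 of the 10 members were lowest on array 2, beside 50.5% of genes above the 75th percentile. After centring on the 75th percentile of each array the count was 7 of 10 beside 40.5%, and after quantile normalization it was 7 of 10 beside 29.6%. Gsta1, Gstm1, Gstm2, Gstt1, Gstp1, Gstk1 and Mgst1 were lowest on array 2 under all 4 scalings. Gsta4 was lowest on array 3 under each scaling but the median one. Gstt2 was lowest on array 1 after quantile normalization and after centring on the 75th percentile. Of the 12 proximal tubule markers, 10 lay above the 75th percentile on all 3 arrays. Among the 12, 9 were lowest on array 2 with median centring and 5 with quantile normalization. The shares were 46.4% and 32.0% of all named genes, and 62.4% and 29.6% of genes above the 75th percentile. The median deviation of these markers on array 2 was -0.11 with median centring. One of them, Slc7a13, an amino acid carrier of the late segment, gave 209, 73.6 and 638, a far wider spread than that of any member. With median centring, the other lists had 4 of 8 markers lowest on array 2 for the thick ascending limb, 5 of 11 for distal tubule and collecting duct, 1 of 7 for endothelium, 1 of 5 for podocytes, 4 of 9 for fibroblasts and smooth muscle and 4 of 7 for leukocytes. The median deviations on arrays 1, 2 and 3 were -0.29, 0.02 and 0.39 for endothelium and -0.15, -0.04 and 0.25 for fibroblasts and smooth muscle. In these 2 lists, 5 of 7 and 5 of 9 markers were lowest on array 1, and 4 of 7 and 9 of 9 were highest on array 3. The median deviations were -0.05, -0.17 and 0.23 for leukocytes, 0.11, -0.06 and 0.06 for the thick ascending limb and -0.27, 0.16 and 0.10 for podocytes. The part of cell make-up in the members' lower array 2 signals was not tested.

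**Figure D3:**
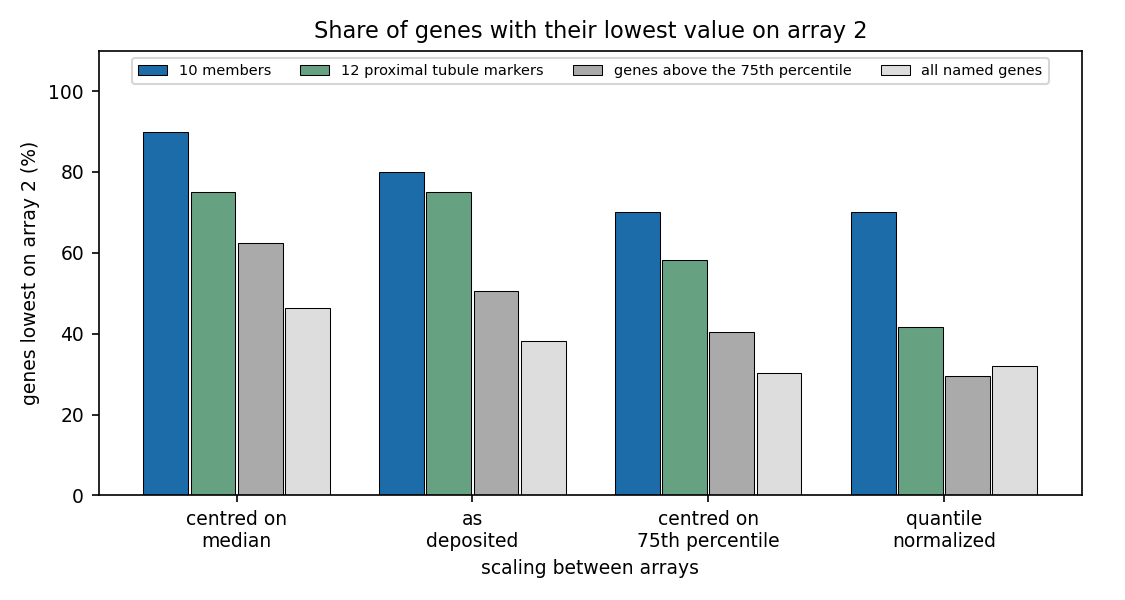
Share of genes (%) whose lowest value was on array 2, under 4 scalings between arrays, for the 10 transferase genes, the 12 proximal tubule markers, the 5172 genes above the 75th percentile on all arrays and all 14217 named genes. The members' bars stand for 9, 8, 7 and 7 of 10 genes, and the background falls with the scaling, to 29.6% of the genes above the 75th percentile after quantile normalization.

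No member ranged 2-fold or more over the arrays (0 of 10), beside 4.46% of all named genes and 1.39% of those above the median level. At a line of 1.5-fold, Gstm1 alone passed, 1 of 10 beside 8.88% of genes above the median level. The median SD of the members over the arrays was 0.18 log2 units, against 0.15 for the genes above the median level. Without array 2 it was 0.08, so that array decides the value.

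The other transferases on the array were read for comparison, 13 of 18 listed genes. Of these, 8 of 13 (61.5%) lay above the median on all 3 arrays, beside 61.0% of all named genes, and their median percentile was 40.7. Gstt3, a theta class gene next to Gstt1, gave 6371, 3817 and 5358. It was lowest on array 2 like Gstt1, and its range was 0.74 log2 units. Gsto1 of the omega class, which reduces dehydroascorbate, gave 3938, 3744 and 3701, close to level over the arrays. Mgst3, a membrane-bound peroxidase, gave 7963, 7044 and 7787, and Gstz1, which also acts in tyrosine breakdown, gave 1046, 881 and 905. Below the array median on all 3 arrays were Mgst2 (12.6, 10.6 and 12.8 on arrays 1, 2 and 3), the prostaglandin D synthase gene Hpgds (12.1, 13.4 and 10.4), Gsto2 (19.3 ± 8.51) and Gstm3 (16.9 ± 8.49; SD, n = 3 each). In this list 9 of 13 genes were lowest on array 2 with median centring, 4 of 13 after centring on the 75th percentile and 5 of 13 after quantile normalization, beside 46.4%, 30.3% and 32.0% of all named genes.

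**Figure D4:**
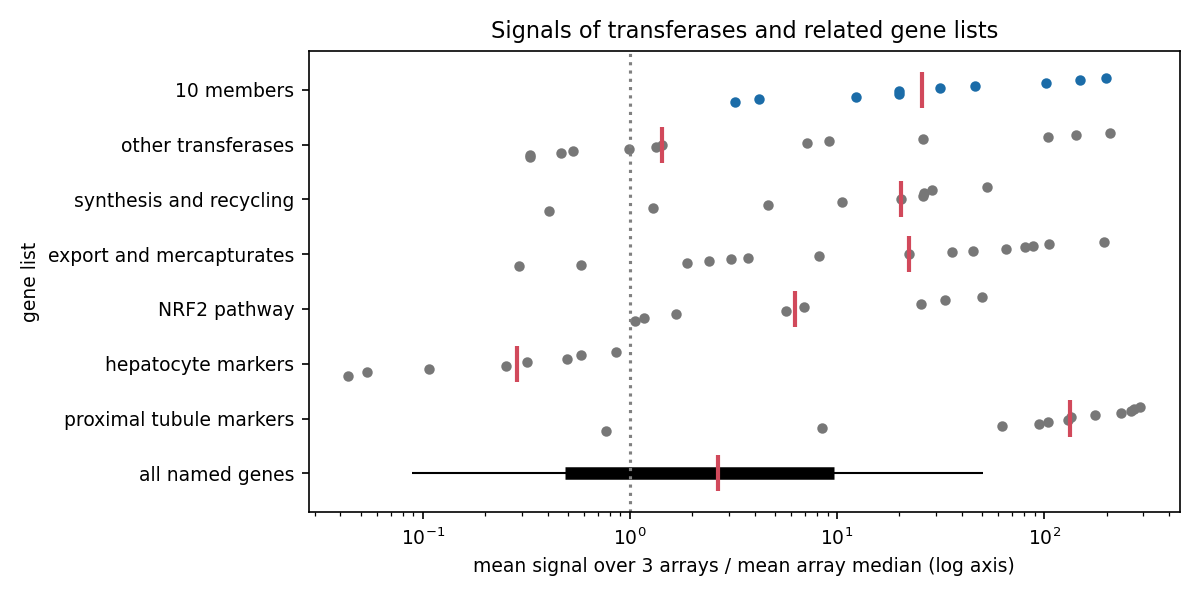
Mean signal of each gene over the 3 arrays, divided by the mean array median (log axis), for the 10 transferases, related gene lists and 2 marker lists; red bars are list medians, and the lowest row gives all named genes (thick bar, interquartile range; thin line, 5th to 95th percentile). All 10 members lie right of the dotted line at 1, whereas 0 of 8 hepatocyte markers do.

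Genes that supply glutathione were read next. Of 9 measured genes of synthesis and recycling, 7 lay above the median on all 3 arrays, beside 61.0% of all named genes. Gclc, the catalytic subunit of the rate-limiting ligase, gave 822, 496 and 915, and its other probe set gave 338, 175 and 368. Both probe sets of Gclc were lowest on array 2, as Gsta1, Gstm1 and Gstt1 were. In this list 5 of 9 genes were lowest on array 2 with median centring and 3 of 9 after quantile normalization. The shares of all named genes were 46.4% and 32.0%, so the list lay near them. The modifier subunit gene Gclm gave 1050.4, 968 and 822 and the synthetase gene Gss gave 1020.0, 987 and 875, and neither was lowest on array 2.

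Of 15 measured genes of conjugate export and mercapturate formation, 13 lay above the median on all 3 arrays, beside 61.0% of all named genes. Ggt1, the brush border enzyme that removes glutamate from conjugates, gave 3839, 2564 and 3294, and the peptidase gene Anpep gave 4618, 3328 and 3545. Nat8, which acetylates cysteine conjugates in the last step, gave 2636, 1068 and 1281. On the log2(signal + 16) scale its range was 1.30, and no other gene of this list passed 2-fold on that scale. As deposited, Ggt5 and Ggt7, both below the array median, also ranged by 3.59-fold and 2.17-fold. Acy1, which removes acetyl groups from such products, gave 7449, 6444 and 7390 (mean 7094 ± 564, SD, n = 3). In this list 13 of 15 genes were lowest on array 2 with median centring and 11 of 15 after quantile normalization, beside 46.4% and 32.0% of all named genes. Of the 15 genes, 9 lay above the 75th percentile on all 3 arrays. Among all genes above that line the shares were 62.4% and 29.6%.

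In the NRF2 pathway list, 7 of 8 genes lay above the median on all 3 arrays, beside 61.0% of all named genes. Some were close to it: Hmox1 gave 39.9, 51.4 and 36.3 and Nqo1 gave 80.7, 60.5 and 41.8. The array medians were 37.1, 37.4 and 34.9. The list's median percentile was 66.7, beside 89.1 for the 10 transferases. With median centring 3 of 8 were lowest on array 2, beside 46.4% of all named genes. Nfe2l2, the gene of NRF2 itself, gave 1270.4, 1473 and 899, with its highest signal on array 2. Ephx1, a microsomal epoxide hydrolase, gave 2169, 1496 and 1794. Srxn1, the sulfiredoxin gene, gave 82.3, 13.0 and 20.4 on its brightest probe set, the widest range of this list at 1.77 log2 units, with arrays 2 and 3 below the array median. The list's median deviation was 0.16, -0.04 and -0.16 on arrays 1, 2 and 3, beside 0.09, -0.16 and 0.11 for the 10 transferases, and the difference was not tested.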

How the data were processed

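Biotin-labelled cRNA from 3 tubule preparations was hybridised to Affymetrix rat arrays, per the labels' protocols. The deposited values are signal intensities per probe set, not log-transformed, and the summarisation software and the scaling between arrays are not given in the sources used here, so they were used as deposited. No detection calls were used, and precision is limited by how many arrays there are. Of 31099 probe sets, 57 control probe sets were left out, as were 436 that named several genes. Of the 20826 that named 1 gene, 20758 matched RefSeq genes (GRCr8) by gene ID, and 0 symbols changed. A gene took its probe set of highest mean signal. Percentiles are among the 14217 named genes. Arrays were compared as log2(signal + 16) centred on the array median of non-control probe sets, in Python 3.11.15 with pandas 2.3.3, after the code was tested on simulated data. "Above the median level" means a mean centred value above the median of all named genes. With 1 group, no test was possible. Windows were aligned globally with Biopython 1.88 (match 1, mismatch -1, gap opening -3, extension -0.5). All members and genes of the function lists could be named. The members and lists were chosen with earlier results of these data known. Alternatives were other probe-set rules, lines, pseudocounts and scalings, a filter, and leaving out each array. The count of genes lowest on array 2, centring on the 75th percentile and the 1.5-fold line were added after seeing the data.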

Additional observations from a re-analysis of the deposited data

How the results depend on the processing

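On all 3 arrays, 10 of 10 members exceeded the array median with a gene's probe sets averaged or the lowest one taken. With the probe set of highest mean signal, 8 exceeded the 75th percentile on all 3 arrays. The lowest probe set of Gstt2 (49.5, 40.3 and 44.1) lay below that line of 181, 167 and 167. Averaging or taking the lowest could change Gstt2 only, as the other 9 members had 1 probe set each. The line at the 25th percentile, leaving out an array and leaving out suffixed probe sets could not lower the count of 10. The members' median percentile was 89.1, and it was 91.0 with probe sets averaged per gene, 92.3 with the lowest probe set and 86.4 without the lowest 20% of named genes. The 2 higher values came through the other named genes, since no member's signal rose under these probe-set rules. Leaving out each array gave 88.8 to 89.8. The count of members ranging 2-fold or more was 0 under all alternatives except the 1.5-fold line, where it was 1. Leaving out an array, leaving out suffixed probe sets and keeping only members above the median level could not raise this count. The median SD was 0.083 to 0.23 log2 units when each array was left out, the lowest without array 2. The members' median deviation on array 2 ran from -0.18 with a pseudocount of 1 to -0.09 after quantile normalization, and kept its sign under all 8 alternatives, of which 2 (no suffixed probe sets, only members above the median level) could not change it. On array 1 it was 0.03 to 0.11 and on array 3 it was 0.07 to 0.13. The count lowest on array 2 was 7 to 9. No paired analysis was possible because there was 1 group of samples. Signals near the array median, such as the dimmer Gstt2 probe set, could not be told from background without detection calls.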
